A study of Sus scrofa with 4 samples.

Results

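The genes described here make and use the antioxidants of the cell: the transcription factor NRF2 and its inhibitor, glutathione synthesis, thioredoxin, the peroxiredoxins, glutathione peroxidases and transferases, superoxide dismutases, catalase and ferritin. A list of 34 symbols was matched to the gene names of the deposited tables, and 33 of the 34 were found among 26921 genes and loci. GSTP1 had no row under that symbol. A row named LOC100739163, which the deposited annotation describes as pig glutathione S-transferase P, is given separately below and is not counted as a member. The libraries came from cultured cells of pig testis, given in the labels as immature spermatogonia. The control group (2 libraries) is labelled WT and the other group (2 libraries) is labelled ZBTB16 knockdown. The series plans transduction of primary cells with a lentivirus carrying a short hairpin RNA against ZBTB16, and the labels do not say whether the controls received a vector, so knockdown and virus cannot be told apart. The age of the pigs and the number of animals behind these libraries were not stated, and the labels speak of separate experiments.

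NRF2, encoded by NFE2L2, is held in the cytoplasm and marked for degradation by KEAP1. When oxidants or electrophiles modify KEAP1, NRF2 enters the nucleus, pairs with a small MAF protein and binds the antioxidant response element of genes for glutathione, thioredoxin and iron handling. Its activity is set largely at the level of the protein, which mRNA counts do not measure. In the testis GPX4 is known as a structural as well as an enzymatic protein of sperm.

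The core of that element, TGACNNNGC, was searched on both strands of the window from 250 bases before to 50 bases after each annotated gene start in Sscrofa 11.1 (RefSeq). It was present in 6 of 33 member windows (18.2%) and in 2526 of 20664 windows of protein-coding genes (12.2%). The 6 member matches are shown because they are the places where the list's genes carry the letters of the NRF2 site near their start, with 10 bases on either side, read 5′ to 3′ on the strand where the core reads TGACNNNGC. Capitals mark the core.
NQO1 (chr6:17292742-17292770, plus strand, core 210 bases before the start): ctagtcacagTGACTCAGCgagattctga
GCLC (chr7:27209373-27209401, plus strand, 182 bases before): aaaacgaggcTGACCCGGCtcctcgccgc
GPX4 (chr2:77324103-77324131, plus strand, 190 bases before): ttgctgtaggTGACTGCGCatgctctcag
GLRX (chr2:102438030-102438058, minus strand, 197 bases before): gagagtaaggTGACTCTGCtctttttcca
TXN (chr1:251278004-251278032, plus strand, 22 bases before): tgcttcggcgTGACACAGCagtttagtgc
MGST3 (chr4:85094994-85095022, minus strand, 10 bases after): atgaaaagtaTGACCCGGCtggggcagtt

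The NQO1 core overlaps the AP-1 motif TGANTCA, and none of the other 5 printed windows holds those letters. By counts, 5 of the 6 genes with a core fell in the knockdown libraries and 1, TXN, rose, while 23.8% of all genes tested fell and 22.7% rose. Of the 27 members without one, 18 fell, 6 rose and 3 did not pass. Not all of these calls held in the other fits given below, and those of TXN and GLRX did not. A match is a description of letters, and elements farther from the start were not searched.

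The targeted gene ZBTB16 had 1.77 and 1.76 FPKM (fragments scaled by transcript length and library size) in the controls and fell to 1.37 and 1.34 with knockdown, a fitted level of 0.779 times control (edgeR adjusted p = 0.00338, DESeq2 adjusted p = 0.083, limma adjusted p = 0.0685). Libraries held between 15983390 and 18500447 expected counts. By the difference between deposited length and effective length fragments averaged 325.74 and 326.74 bases in the controls and 266.36 and 267.35 with knockdown, so fragment length and group cannot be told apart. Of 8 genes taken as markers of undifferentiated spermatogonia, UCHL1 was between 85.25 and 121.72 FPKM, ID4 between 24.53 and 29.94 and ETV5 between 7.5 and 8.73, ZBTB16 was under 2 FPKM, and GFRA1, SALL4, NANOS2 and LIN28A were under 1 FPKM in each library. Among the germ line genes DDX4, DAZL and TEX101 were under 4 FPKM, MAEL was between 3.49 and 5.24 and DND1 between 2.14 and 6.84. By counts DAZL rose 1.46-fold and DND1 fell to 0.414 times control. The summed FPKM of 6 Sertoli cell genes was 765.1 and 752.1 in the controls and 929.6 and 956.9 with knockdown. By counts 5 of them rose and 1, AMH, fell to 0.644 times control, where 22.7% of all genes tested rose and 23.8% fell. Most of this sum was CLDN11, with means of 579.1 FPKM in the controls and 706.1 with knockdown. The other 6 lists were lower in both knockdown libraries: spermatogonia (157.9 and 155.9 to 127.0 and 125.7; 1 of 8 rose, 2 fell), germ line (16.78 and 16.12 to 12.08 and 11.15; 1 of 5 rose, 1 fell), Leydig cells (206.4 and 203.2 to 169.1 and 180.4; 1 of 5 fell), macrophages (16.98 and 20.14 to 10.3 and 13.67; 1 of 5 rose, 2 fell), smooth muscle (5259 and 5171 to 5089 and 4991; 3 of 4 rose, 1 fell) and fibroblasts (1754 and 1746 to 1630 and 1626; 3 of 4 fell). FPKM summed over all genes was also lower, at 739807.9 and 742383.3 in the controls and 634961.9 and 632880.6 with knockdown. A lower summed FPKM is therefore not particular to these lists. In the smooth muscle list TAGLN fell, from a mean of 1882 to 1430 FPKM, while ACTA2, MYH11 and CNN1 rose by counts. No gene of these lists was at 0 in every library, and the part of cell makeup in the results below was not tested. In these bulk samples fewer cells of a type and less RNA per cell cannot be told apart.

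All 33 genes were expressed, with group means from 2.41 FPKM upward, and all 33 passed the low-count filter. Counts were tested over 15763 genes with edgeR, of which 46.4% changed at an adjusted p under 0.05. Only genes past that threshold are said to rise or fall. In the knockdown libraries 23 of the 33 fell (69.7%, against 23.8% of all genes tested), 7 rose (21.2%, against 22.7%) and 3 did not pass. The median log2 fold change was -0.24 for the members and -0.00082 for all genes tested. By FPKM both knockdown libraries lay below both controls for 27 members (41.4% of all genes tested did so), above both for 5 (29.0% of genes tested) and the groups overlapped for 1, GPX1. The 2 libraries of a group were close to each other: the chi-square per gene (about 1 under sampling noise alone) was 1.175 for the control pair and 1.267 for the knockdown pair, against 27.67 to 30.26 across groups.

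**Figure D1:**
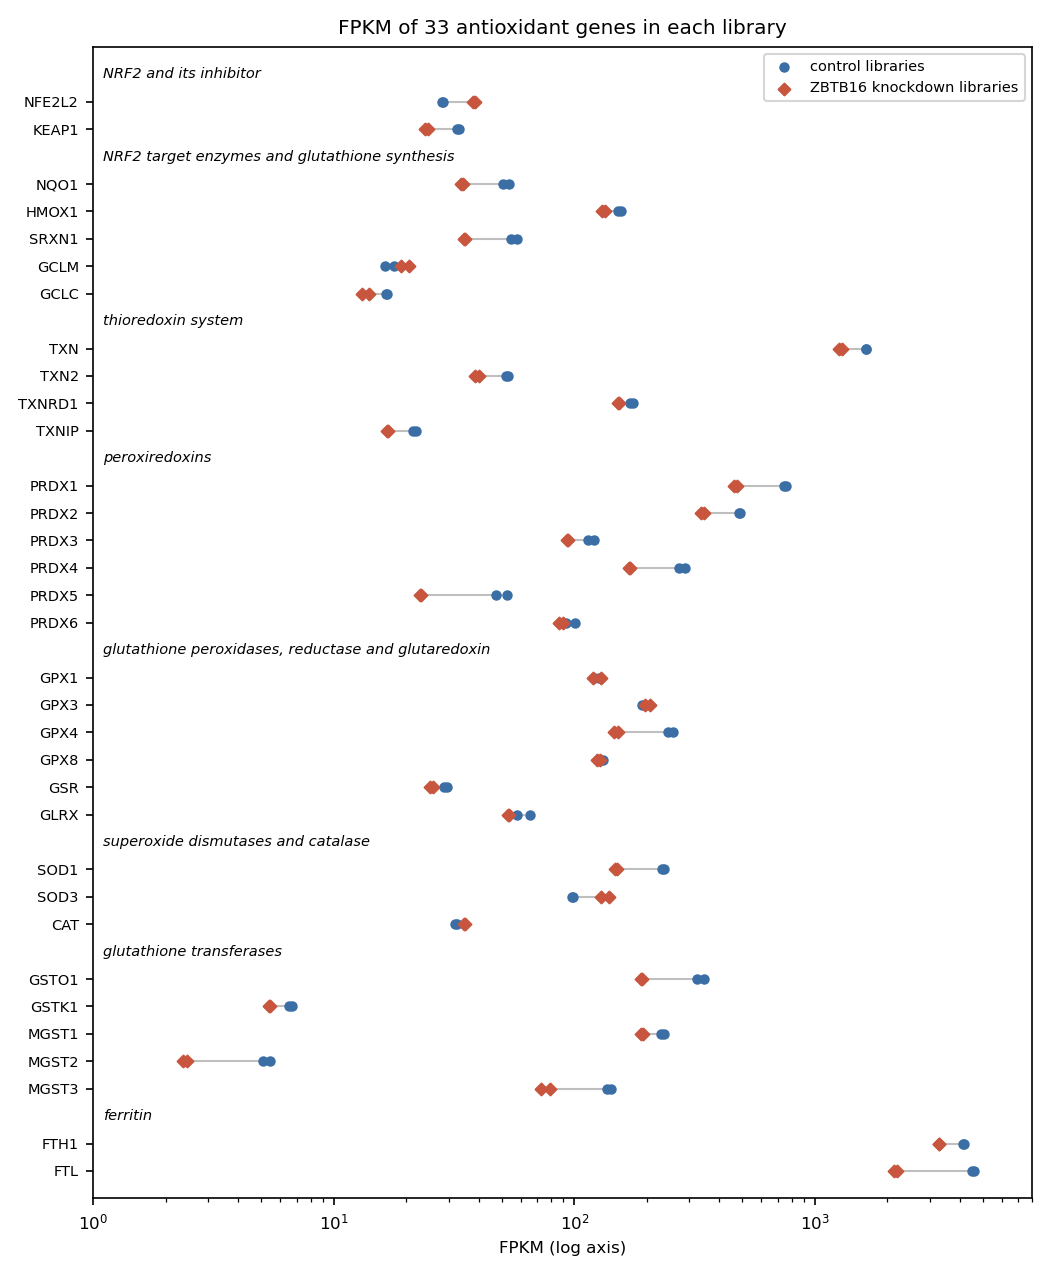
FPKM of each of the 33 genes (log axis) in the 2 control libraries (circles) and the 2 ZBTB16 knockdown libraries (diamonds), grouped by role, with a line joining the group means. Most diamonds lie to the left of the circles, while those of NFE2L2, GCLM, GPX3, SOD3 and CAT lie to the right.

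Fold changes moved with transcript length, though not in one direction over the whole range, and most of these genes are shorter than the median gene. The median length was 1407 bases for the members and 3077 bases for all genes tested, and 11 members were shorter than 1000 bases. Of the 235 tested genes under 500 bases 51.9% rose and 27.2% fell (median log2 change 0.70), and TXN, the 1 member among them, rose. Of all tested genes of 500 to 1000 bases 60.2% fell (median log2 change -0.42), and 9 of the 10 members of that class fell (median -0.57). Between 1000 and 2000 bases 43.1% of all genes and 9 of 14 members fell (medians -0.19 and -0.21). Between 2000 and 4000 bases 21.5% of all genes and 5 of 6 members fell (medians -0.0081 and -0.20). Longer genes were higher, with medians of 0.10 between 4000 and 8000 bases, the class of GCLM, and 0.19 from 8000 bases, the class of NFE2L2. With length and GC trends removed, 20.1% of all genes and 16 of 33 members fell, and the median log2 change of the members was -0.080.

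**Figure D2:**
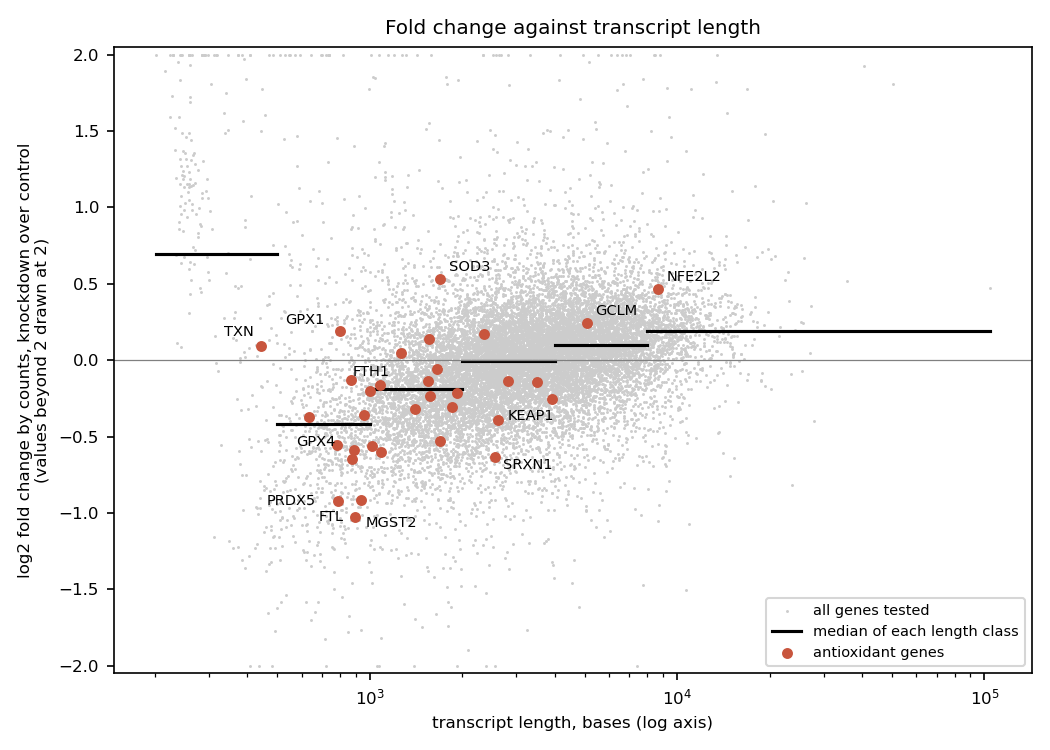
Log2 fold change by counts (knockdown over control) against transcript length in bases (log axis) for all genes tested (grey) and the 33 members (red), with the median of each length class as a black line. Members of 500 to 1000 bases have a median of -0.57 beside the class median of -0.42, and NFE2L2, the longest member, lies at 0.46 beside a class median of 0.19.

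Fold changes were therefore also taken from fits that treat length differently. An offset for the effective length, the number of positions at which a fragment can start, gave 5 members that rose and 24 that fell (22.5% and 23.9% of all genes, 46.4% in either direction). Removing a smooth trend of length in each library gave 10 and 17 (19.3% and 21.6%, 40.9% in either). Removing length and GC trends gave 10 and 16 (19.3% and 20.1%, 39.4% in either), and limma on log2(FPKM + 1) gave 3 and 24 (15.6% and 29.7%, 45.3% in either). In each of these 5 fits, the count fit included, 15 members fell: KEAP1, NQO1, GCLC, GSR, TXNRD1, TXNIP, SRXN1, PRDX1, PRDX4, PRDX5, GPX4, GSTO1, MGST2, MGST3 and FTL. Of the 12433 genes tested in all 5 fits, 16.3% fell in each. NFE2L2, SOD3 and CAT rose in each of the 5, as did 12.0% of those genes. HMOX1, TXN, MGST1 and FTH1 were called in opposite directions by different fits.

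**Figure D3:**
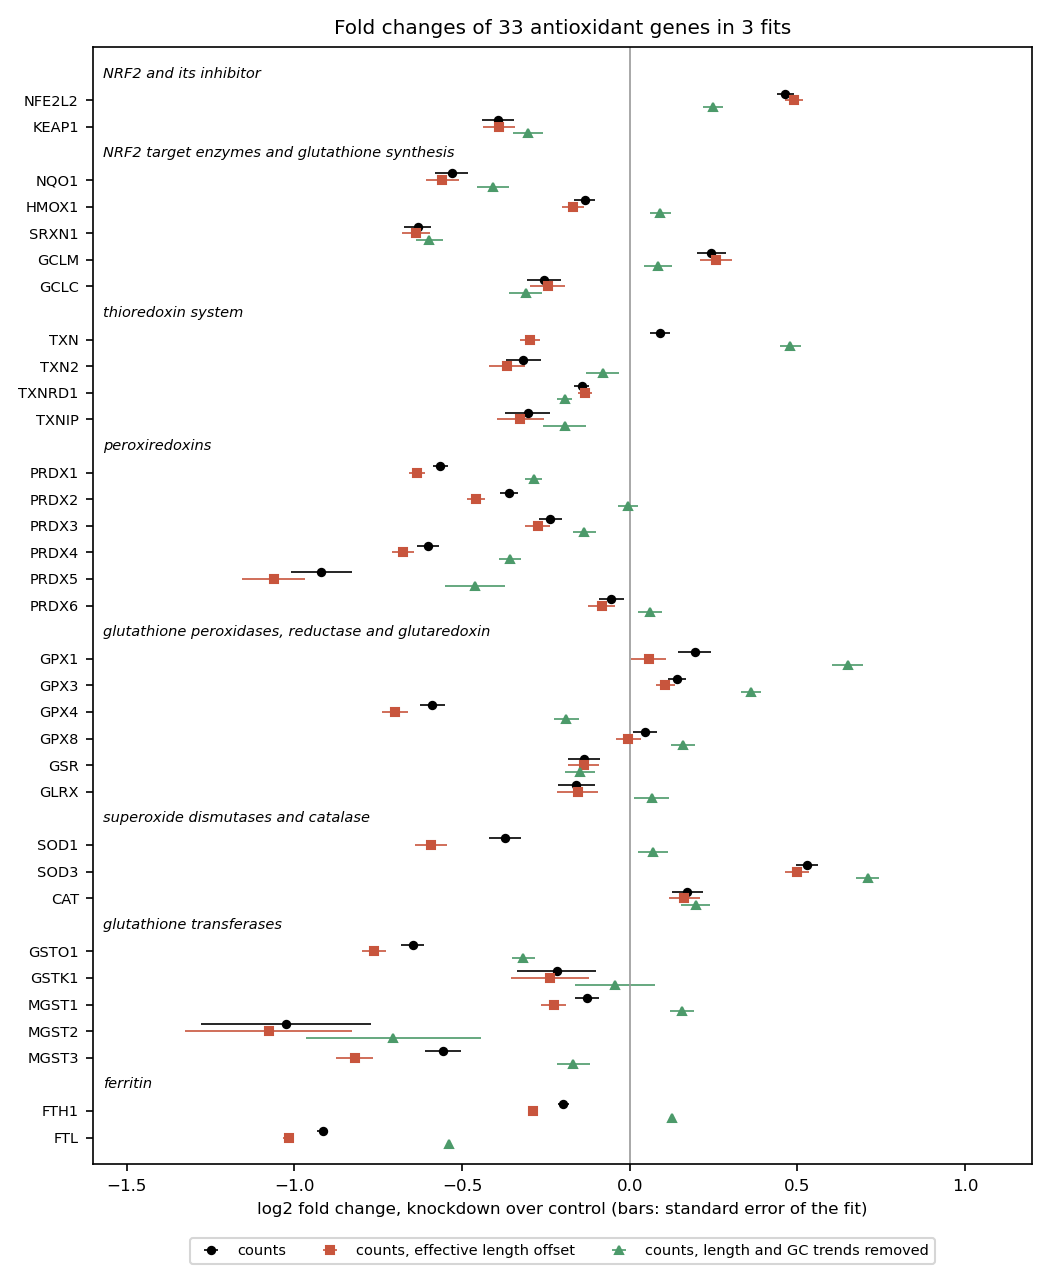
Log2 fold change with the standard error of the fit for each gene by counts (circles), with an effective length offset (squares) and after removal of length and GC trends (triangles). SRXN1 and SOD3 stay on one side in all 3, whereas TXN goes from 0.090 to -0.30 and 0.48.

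NFE2L2 and KEAP1 moved in opposite directions. NFE2L2 mRNA (chromosome 15, 82967485 to 83146185) was at 28.28 and 28.31 FPKM in the controls and 37.96 and 38.72 with knockdown. The groups did not overlap, and the fitted level was 1.38 times control (log2 0.46, SE 0.0264, edgeR adjusted p = 1.23e-37). NFE2L2 is 8656.2 bases long, and its log2 change was 0.30 with the length trend removed and 0.25 with length and GC trends removed. KEAP1 (chromosome 2, 69280940 to 69290267), the adaptor that presents NRF2 for ubiquitination, was at 33.1 and 32.6 FPKM in the controls and 24.54 and 23.83 in the knockdown. It fell to 0.762 times control (log2 -0.39, SE 0.0475, edgeR adjusted p = 6.25e-13), and its log2 change lay between -0.43 and -0.30 over the other 4 fits. Within a library the ratio of KEAP1 to NFE2L2 FPKM was 1.17 and 1.15 in the controls and 0.646 and 0.615 in the knockdown libraries.

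Of 5 genes of NRF2 target enzymes and glutathione synthesis 4 fell and 1 rose by counts, where 23.8% of all genes tested fell and 22.7% rose. SRXN1, sulfiredoxin, which repairs over-oxidized peroxiredoxins, was at 54.76 and 57.77 FPKM in the controls and 34.63 and 35.16 in the knockdown (chromosome 17, 34582377 to 34589308). It fell to 0.645 times control (log2 -0.63, SE 0.04, edgeR adjusted p = 6.2e-33) and hardly moved with the fit, from -0.60 to -0.67. NQO1, a quinone reductase used as a readout of NRF2 activity, was at 53.47 and 50.71 FPKM against 33.78 and 34.55 (chromosome 6, 17292962 to 17302593). Both knockdown libraries were below both controls, and the fitted level was 0.692 times control (log2 -0.53, edgeR adjusted p = 2.88e-19), with log2 changes of -0.37 to -0.59 in the other fits.

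The 2 subunits of glutamate-cysteine ligase, the rate-limiting step of glutathione synthesis, differed in direction. GCLC, the catalytic subunit, was at 16.52 and 16.65 FPKM in the controls and 13.09 and 13.96 in the knockdown and fell to 0.838 times control (edgeR adjusted p = 8.65e-06). GCLM, the modifier subunit, was at 16.37 and 17.79 FPKM and then 18.95 and 20.51. It rose 1.18-fold by counts (edgeR adjusted p = 3.81e-07), but its log2 change of 0.24 was 0.085 with length and GC trends removed (adjusted p = 0.0943), and limma on log2(FPKM + 1) gave an adjusted p of 0.0537. Its transcript is 5104 bases long. HMOX1, heme oxygenase 1 (on an unplaced scaffold), was at 151.56 and 157.07 FPKM against 134.2 and 130.5 and fell to 0.911 times control (edgeR adjusted p = 1.29e-04). With length and GC trends removed it was higher (log2 0.092, edgeR adjusted p = 0.0156), so no direction held for it.

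The cytosolic thioredoxin TXN, which reduces protein disulfides and hands electrons to peroxiredoxins, shows how much the unit decides for a short transcript. Its length is 443.74 bases on average, and its effective length was 133.79 and 128.82 bases in the controls and 173.05 and 178.76 in the knockdown libraries. Its counts were 3760, 3348, 4036 and 3831, and by counts it rose 1.06-fold (edgeR adjusted p = 0.00654). Its FPKM was 1626.08 and 1626.02 in the controls and 1260.65 and 1295.09 in the knockdown, and with the effective length offset it was lower (log2 -0.30, edgeR adjusted p = 2.44e-09). With length and GC trends removed it was higher again (log2 0.48), so TXN had no direction free of the length treatment, and the count call was also lost without control replicate 2 (adjusted p = 0.174) or knockdown replicate 2 (0.264) and with DESeq2 (0.0736).

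TXNRD1, the selenoprotein that reduces thioredoxin, was at 170.98 and 175.3 FPKM in the controls and 152.68 and 152.04 in the knockdown. The groups did not overlap and it fell to 0.905 times control (edgeR adjusted p = 3.52e-09), a small change that was -0.13 to -0.19 on the log2 scale over the other fits. TXN2, the mitochondrial thioredoxin, was at 52.16 and 53.02 FPKM against 38.65 and 40.19 and fell to 0.802 times control. Its log2 change was -0.080 with length and GC trends removed (adjusted p = 0.203). TXNIP, which binds and inhibits thioredoxin, was at 22.06 and 21.33 FPKM against 16.57 and 16.86 and fell to 0.81 times control (edgeR adjusted p = 5.55e-05).

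The peroxiredoxins, which reduce hydrogen peroxide through a reactive cysteine, were mostly lower. By counts 5 of 6 fell (23.8% of all genes did), with the effective length offset 5 (23.9%) and with length and GC trends removed 4 (20.1%). PRDX1 to PRDX6 are 786 to 1661 bases long, in the classes where 60.2% and 43.1% of all genes fell by counts. PRDX5, found in mitochondria, peroxisomes and cytosol, had 47.04 and 52.33 FPKM in the controls and 22.94 and 22.91 in the knockdown (chromosome 2, 7798672 to 7801955). It was the deepest fall of the family, to 0.529 times control (log2 -0.92, SE 0.0906, edgeR adjusted p = 8.91e-18), and was at -0.46 with length and GC trends removed. PRDX4, the peroxiredoxin of the endoplasmic reticulum, was at 288.21 and 271.49 FPKM and then 168.73 and 169.61, and fell to 0.659 times control (edgeR adjusted p = 1.12e-40).

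PRDX1, the most abundant member of the family per length, was at 745.57 and 758.8 FPKM in the controls and 462.22 and 473.12 in the knockdown libraries. It fell to 0.676 times control (log2 -0.56, SE 0.0228, edgeR adjusted p = 9.11e-55) and was at -0.29 with length and GC trends removed. PRDX2 was at 487.57 and 482.17 FPKM against 344.49 and 337.3 and fell to 0.779 times control, yet its log2 change was -0.0046 with those trends removed (adjusted p = 0.923). PRDX3, the mitochondrial form, was at 113.76 and 120.63 FPKM against 93.13 and 93.88 and fell to 0.849 times control; with the length trend alone removed its log2 change was -0.069 (adjusted p = 0.111). PRDX6, which has a single reactive cysteine, was at 100.77 and 92.22 FPKM against 86.61 and 89.43 and did not pass by counts (log2 -0.055, edgeR adjusted p = 0.227); with the length trend removed it was at 0.11 (adjusted p = 0.00963).

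Among the glutathione peroxidases GPX4 stood apart from GPX1 and GPX3. GPX4, which reduces lipid peroxides in membranes and so guards against ferroptosis, was at 256.41 and 244.49 FPKM in the controls and 146.24 and 151.83 in the knockdown (chromosome 2, 77321568 to 77323931). Both knockdown libraries were far below both controls, and it fell to 0.665 times control (log2 -0.59, SE 0.0377, edgeR adjusted p = 2.01e-32; -0.19 with length and GC trends removed). GPX1, the common cytosolic form, had a similar transcript length (799 against 890 bases) but 126.88 and 120.83 FPKM in the controls and 129.14 and 119.23 in the knockdown. Its FPKM overlapped between the groups. By counts it rose 1.14-fold (edgeR adjusted p = 3.97e-04), a call lost when knockdown replicate 1 was left out (adjusted p = 0.0843). The log2 change was 0.056 with the effective length offset (adjusted p = 0.395) and 0.65 with length and GC trends removed. The ratio of GPX4 to GPX1 FPKM was 2.02 in each control and 1.13 and 1.27 in the knockdown libraries.

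GPX3, the secreted glutathione peroxidase, was at 196.54 and 191.04 FPKM in the controls and 197.56 and 205.44 in the knockdown. It rose 1.1-fold by counts (edgeR adjusted p = 4.66e-06), and limma on log2(FPKM + 1) gave a log2 change of 0.056 (adjusted p = 0.207). GPX8, a peroxidase of the endoplasmic reticulum that uses cysteine in place of selenocysteine, was at 129.46 and 131.88 FPKM against 123.9 and 127.66 and did not pass by counts (edgeR adjusted p = 0.318), and with length and GC trends removed it was higher (log2 0.16, adjusted p = 1.19e-04). GSR, which regenerates reduced glutathione, was at 28.64 and 29.55 FPKM against 25.81 and 25.2 and fell to 0.91 times control; the adjusted p was 0.12 without control replicate 2, 0.0831 without knockdown replicate 2 and 0.116 with DESeq2. GLRX, glutaredoxin 1, was at 65.35 and 57.72 FPKM against 53.22 and 53.45. Its count call (0.895 times control, edgeR adjusted p = 0.0123) was lost without control replicate 1 (0.126), without knockdown replicate 1 (0.0796), with DESeq2 (0.147) and with limma on log2(FPKM + 1) (0.0534), and its log2 change was 0.066 with length and GC trends removed.

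The superoxide dismutases of the cytosol and of the matrix outside the cell moved apart. SOD3, the secreted extracellular enzyme, was at 99.16 and 97.57 FPKM in the controls and 138.89 and 129.51 in the knockdown (chromosome 8, 18796633 to 18802156). It had the largest rise among the 33 by counts, 1.44-fold (log2 0.53, SE 0.033, edgeR adjusted p = 1.93e-33), and lay between 0.44 and 0.71 on the log2 scale over the other fits. SOD1, the copper-zinc enzyme of the cytosol, was at 235.13 and 230.8 FPKM against 150.75 and 147.35 and fell to 0.772 times control by counts (edgeR adjusted p = 1e-11). Its transcript is 635 bases long, and its log2 change was -0.59 with the effective length offset but -0.025 with the length trend removed (adjusted p = 0.728) and 0.070 with length and GC trends removed. CAT, catalase, was at 32.01 and 32.44 FPKM against 35.01 and 34.64 and rose 1.13-fold (edgeR adjusted p = 9.22e-04).

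Of the 5 glutathione transferases found, 4 fell by counts. All 4 are 500 to 1000 bases long, a class in which 60.2% of all tested genes fell. GSTO1, an omega-class transferase, was at 345.58 and 325.02 FPKM in the controls and 191.82 and 190.07 in the knockdown. It fell to 0.638 times control (log2 -0.65, SE 0.0341, edgeR adjusted p = 3.85e-41). Its counts were not whole, so reads were shared with a similar sequence. LOC100623931, described as omega-1-like but a long non-coding RNA in the reference, was between 3.64 and 7.09 FPKM. That row held 25.43 to 44.5 counts a library, against 1920.76 to 3298.5 for GSTO1. MGST3, a microsomal transferase, was at 137.23 and 141.84 FPKM against 79.35 and 72.78 and fell to 0.68 times control (edgeR adjusted p = 2.09e-18). MGST2 was at 5.42 and 5.07 FPKM against 2.45 and 2.37 and fell to 0.491 times control from fewer than 60 counts a library (log2 -1.03, SE 0.254, edgeR adjusted p = 2.95e-04). Removal of length and GC trends left log2 changes of -0.32 for GSTO1, -0.17 for MGST3 and -0.71 for MGST2.

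MGST1, the most abundant microsomal transferase here, was at 228.43 and 235.13 FPKM in the controls and 190.03 and 192.35 in the knockdown. It fell to 0.915 times control by counts and was higher with length and GC trends removed (log2 0.16, edgeR adjusted p = 2.01e-04), and without control replicate 2 its count call had an adjusted p of 0.0613. GSTK1, at 6.51 and 6.69 FPKM against 5.38 and 5.43, did not pass by counts (edgeR adjusted p = 0.123), and limma on log2(FPKM + 1) called it lower (adjusted p = 0.0174). LOC100739163, the row annotated as glutathione S-transferase P, had a mean of 472.2 FPKM in the controls and 392.2 in the knockdown. It did not pass by counts (log2 -0.065, edgeR adjusted p = 0.0595), was lower with the effective length offset (-0.22) and higher with length and GC trends removed (0.39).

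Ferritin, the iron store of the cell, is built of a heavy chain with ferroxidase activity (FTH1) and a light chain (FTL). FTL was the 12th and FTH1 the 13th most abundant gene by FPKM in the controls. FTL was at 4576.42 and 4511.07 FPKM in the controls and 2202 and 2131.05 in the knockdown libraries (chromosome 6, 54231121 to 54232756), from 48190, 43857, 27239 and 23545 counts. It fell to 0.53 times control (log2 -0.92, SE 0.0169, edgeR adjusted p = 1.73e-102), and its log2 change was -1.02 with the effective length offset, -0.66 with the length trend removed and -0.54 with length and GC trends removed. FTH1 (chromosome 2, 9535051 to 9537979) was at 4135.37 and 4165.08 FPKM in the controls and 3296.78 and 3269.25 in the knockdown. It fell to 0.872 times control by counts (log2 -0.20, edgeR adjusted p = 1.33e-23) but was at 0.031 with the length trend removed (adjusted p = 0.105) and 0.13 with length and GC trends removed. Both transcripts are of like length, 934 and 1000 bases, and the ratio of FTL to FTH1 FPKM was 1.11 and 1.08 in the controls and 0.668 and 0.652 in the knockdown libraries. In FPKM the light chain stood above the heavy chain in both controls and below it in both knockdown libraries. By counts, which are not scaled by length, FTL was below FTH1 in each library, at 48190 against 48263 and 43857 against 44887 in the controls and 27239 against 44807 and 23545 against 39691 with knockdown.

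**Figure D4:**
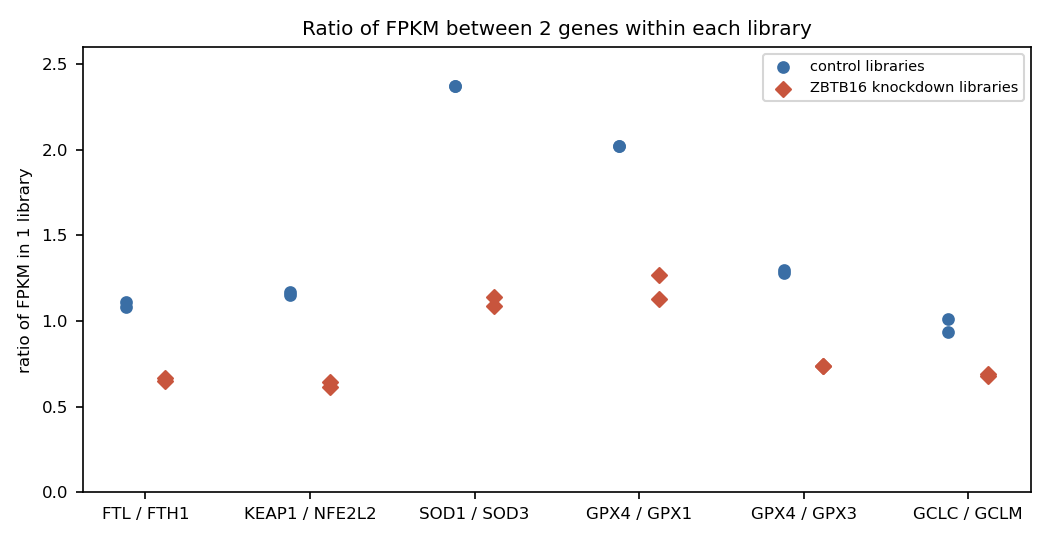
Ratio of FPKM between 2 genes within each library, for 6 pairs of related members, in the 2 control libraries (circles) and the 2 knockdown libraries (diamonds). In each pair both knockdown libraries lie below both controls, as for GCLC over GCLM with 1.01 and 0.936 against 0.691 and 0.681.

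These ratios cancel the scaling of the library but not an effect of length where the lengths differ, as for SOD1 over SOD3 (2.37 in each control, 1.09 and 1.14 in the knockdown) and KEAP1 over NFE2L2. The pairs were chosen after their values were seen, and no test was made on them. With 2 libraries against 2 an exact permutation test of 1 value cannot give a two-sided p below 0.333.

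A further list held other genes of redox control, NADPH supply, iron handling and selenoproteins. Of 95 listed 93 were in the tables and 90 were tested, of which 47 fell, 15 rose and 28 did not pass (median log2 change -0.17, against -0.00082 for all genes, of which 23.8% fell and 22.7% rose). In each of the 5 fits 30 fell and 7 rose (16.3% and 12.0% of all genes). After removal of length and GC trends 35 fell and 17 rose (20.1% and 19.3% of all genes). Named by rank of p, the falls began with PGD, an enzyme of the pentose phosphate pathway that makes NADPH, which was at 227.77 and 228.82 FPKM against 149.48 and 156.93 (0.701 times control, edgeR adjusted p = 3.86e-44). TALDO1 of the same pathway fell to 0.734 times control. SQSTM1, the p62 autophagy receptor that competes with NRF2 for KEAP1, was at 413.76 and 403.17 FPKM against 300.44 and 296.85 (0.764 times). Removal of length and GC trends gave 0.794 times control for PGD, 0.889 for TALDO1 and 0.845 for SQSTM1.

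ATOX1, a copper chaperone, had the deepest fall on that list, from 257.27 and 235.52 to 76.9 and 77.02 FPKM (log2 -1.23 by counts, -0.71 with length and GC trends removed, edgeR adjusted p = 8.49e-37 by counts). SOD2, the manganese superoxide dismutase of mitochondria, was at 503.49 and 504.98 FPKM against 387.04 and 397.92 and fell to 0.823 times control. The selenoproteins SELENOM, SELENOS and SELENOK fell to 0.538, 0.697 and 0.641 times control, NFE2L1, a relative of NRF2, to 0.819 times and TXNDC17 to 0.619 times. SELENOM, SELENOS, SELENOK and TXNDC17 are 673.96, 947, 769.56 and 801 bases long, in the class where 60.2% of all tested genes fell. Removal of length and GC trends gave 0.779, 0.862, 0.803 and 0.813 times control for them. It gave 0.793 times for NFE2L1 and 0.904 times for SOD2. The small MAF proteins, partners of NRF2 on DNA, were looked up after their values were seen. MAFF, MAFG and MAFK fell to 0.751, 0.712 and 0.628 times control (edgeR adjusted p = 3.43e-07, 2.11e-19 and 1.58e-08). Their transcripts are 2242.5, 5111.9 and 2962.2 bases long. Each fell in all 5 fits, as did 16.3% of all genes.

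Fewer genes of that list rose. ABCC1, an exporter of glutathione conjugates, was at 73.3 and 70.5 FPKM against 82.2 and 83.22 and rose 1.17-fold (edgeR adjusted p = 8.45e-18). TFRC, the transferrin receptor, was at 32.3 and 32.63 FPKM against 36.37 and 39.54 and rose 1.22-fold, and ACO1, the iron regulatory protein 1, rose 1.1-fold. TFRC and ACO1 rose and FTL fell in each of the 5 fits. Of the genes tested in all 5, 12.0% rose and 16.3% fell in each. FTH1 fell by counts (log2 -0.20) but was called higher with length and GC trends removed (0.13). Of other iron-handling genes of that list, SLC40A1, NCOA4 and IREB2 did not pass by counts (edgeR adjusted p = 0.158, 0.612 and 0.0503). SLC11A2 rose 1.1-fold by counts (edgeR adjusted p = 0.0251) but was called in none of the other fits. NNT, a mitochondrial source of NADPH, rose 1.14-fold, SELENON 1.13-fold, the sestrin SESN2 1.27-fold and nucleoredoxin (NXN) 1.13-fold. GSTCD rose 1.41-fold at under 2 FPKM, GPX7 1.1-fold and SELENOT 1.14-fold, but each of these 3 lost its call without 1 or more libraries (adjusted p up to 0.0728, 0.0917 and 0.0988), and SELENOT was at -0.021 with the effective length offset.

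SLC7A11, the cystine importer that feeds glutathione synthesis, was at 6.25 and 6.61 FPKM in the controls and 6.24 and 6.49 in the knockdown and did not pass by counts (edgeR adjusted p = 0.861). Its transcript is 9345 bases long, and with length and GC trends removed it was lower (log2 -0.24, adjusted p = 7.53e-06). BACH1, a repressor at antioxidant response elements, was at 20.85 and 21.61 FPKM against 22.15 and 22.35. It rose 1.07-fold by counts (edgeR adjusted p = 0.0194), a call lost when control replicate 1, knockdown replicate 1 or knockdown replicate 2 was left out (adjusted p = 0.292, 0.0582 and 0.0895), and its log2 change was -0.072 with length and GC trends removed.

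Some rows are uncertain in their own right. Expected counts were not whole for 4 members, NFE2L2, PRDX6, GSTO1 and MGST2, so part of their reads was shared with other transcripts. NFE2L2, TXN, PRDX2, PRDX6, GPX8, SOD1 and MGST2 overlap a gene on the opposite strand in the annotation, and no source here states a strand setting for the counting. For MGST2, MGST3 and GLRX the deposited length also differed between libraries (844.41 to 979.6, 745.71 to 805.5 and 1053.45 to 1138.58 bases). This shifts their FPKM apart from their counts. Smaller differences in length were present for some other members, such as TXN (437.28 to 449.12 bases).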

How the data were processed

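Per the labels' protocols, SOAPnuke 2.1.0 cleaned the reads, HISAT2 2.2.1 placed them on Sscrofa 11.1, bowtie2 2.3.5 mapped them to transcripts and RSEM 1.3.3 counted them. The authors deposited expected counts, FPKM and TPM per gene, with a length and an effective length in bases; TPM was not used in comparisons. RefSeq transcripts of the build had the deposited length for 12264 of 12267 genes with 1 transcript.

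Expected counts were rounded and tested with edgeR 4.0.16 in R 4.3.3 (TMM, filterByExpr with minimum count 10 and total 15, quasi-likelihood, two-sided, Benjamini-Hochberg over all genes). Alternatives were DESeq2 1.42.0, 2 other scalings, no filter, an effective length offset, removal of smooth trends of length or of length and GC content (mgcv 1.9.3), limma 3.58.1 on log2(FPKM + 1) or log2(FPKM + 0.1) (genes reaching an FPKM of 1 in 2 or more libraries, or unfiltered), a replicate block, leaving out each library and an unadjusted p. Genes without a GC value stayed out of that fit, which tested 15283. The count fit, the effective length offset, the length trend fit, DESeq2 and limma were tested on simulated counts. The simulated length effect was a straight line in log length, unlike the effect in these data. The simulation therefore cannot show how well the length trend fit handles these data. For limma the simulated FPKM used the mean effective length of each gene, without the difference between the groups. It cannot show how limma handles that difference. The fit that removes length and GC trends was not simulated. P-values measure the spread between these libraries, which may be technical. The members, the further list and the tests were chosen with earlier results of these data known. Named were ZBTB16, all members and, of the further list, up to 10 rises and 10 falls by p at a mean FPKM of at least 1, with SLC7A11, SOD2 and BACH1. MAFF, MAFG and MAFK, and also SLC40A1, NCOA4, IREB2, SLC11A2 and PARK7, were added after their values were seen.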

Additional observations from a re-analysis of the deposited data

How the results depend on the processing

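With 2 libraries a group the calls rest on a spread pooled over genes, and fragment length separates the groups exactly, so neither length correction can be checked within a group.

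By counts 7319 genes were called. DESeq2 called 4798 and limma on log2(FPKM + 1) without the filter 4438, each over its own set of tested genes. Against 7 members that rose, limma gave 3 with a pseudocount of 1, 3 with 0.1 and 2 unfiltered. Against 15 genes of the further list that rose, DESeq2 gave 7, limma with either pseudocount 7 and limma without the filter 3. Of all genes tested 22.7% rose by counts, 16.3% with DESeq2 and 15.6% with limma on log2(FPKM + 1). Limma with 0.1 called 2034 of 13072 genes higher, and limma without the filter 1421 of 23345. Among all genes tested 23.8% fell by counts, 17.2% with DESeq2 and 29.7% with limma on log2(FPKM + 1). The falls, 23 members and 47 further genes by counts, were within 1.5 times under each alternative.

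Directions changed as follows on the log2 scale, for members and for genes of the further list that the naming rule above chose. They are given where a gene was called by counts or in the fit named. With the length trend removed HMOX1 was at 0.035, PRDX6 at 0.11, MGST1 at 0.16, FTH1 at 0.031, GLRX at 0.043, SLC7A11 at -0.16 and BACH1 at -0.038. With length and GC trends removed HMOX1 was at 0.092, SOD1 at 0.070, MGST1 at 0.16, FTH1 at 0.13, GLRX at 0.066, SLC7A11 at -0.24 and BACH1 at -0.072. With the effective length offset TXN was at -0.30 and SELENOT at -0.021. With limma TXN was at -0.35 with either pseudocount and without the filter, and SELENOT at -0.071 with a pseudocount of 1, filtered or not, and -0.072 with 0.1. PRDX6 (0.061 with length and GC trends removed) and GPX8 (-0.0046 with the effective length offset, -0.055 with limma on log2(FPKM + 1)) also changed sign but were called neither there nor by counts. Genes of the further list outside the naming rule changed direction too. PARK7, for example, was called lower by counts (-0.11). It was called higher with the length trend removed (0.24) and with length and GC trends removed (0.36). The cause was not tested.

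The replicate number as a block gave 7480 called genes of 15763, of which 3674 rose and 3806 fell. It gave 7 members that rose and 23 that fell, 16 and 47 in the further list, and moved no member across the threshold. Deviations of same-numbered libraries from their group mean were uncorrelated (0.0003681 over 15763 genes), so the numbers are not taken as pairs. Leaving out 1 library gave median log2 changes of the members between -0.262 and -0.199. The medians of all genes tested in those fits lay between -0.00406 and -0.000441.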
